A study of Mus musculus with 35 samples.

Results

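Bone marrow-derived macrophages (BMDMs) of mice labelled AMPKa1-/- and of wild-type mice were compared after LPS + Dex, that is, after exposure to an inflammatory bacterial product together with a glucocorticoid. The comparison rests on 6 of the 35 libraries of the study, 3 labelled AMPKa1-/- and 3 wild-type, chosen by genotype and treatment in their labels. All mice were labelled C57BL/6, with no substrain and no breeding of the AMPKa1-/- line stated, so a difference in background between the colonies and the labelled genotype cannot be told apart. BMDMs were grown from marrow in medium conditioned by L929 cells. Both groups received 100 ng/ml lipopolysaccharide (LPS) with 100 nM dexamethasone (Dex) for 24 h, and the other libraries received vehicle (DMSO), Dex, LPS, 1 µg/ml DAMPs or DAMPs + Dex for the same time. For the label AMPKa1-/-, the allele, the exons removed and any Cre driver are not stated in the labels or methods. Values are FPKM, fragments per kilobase, relative to all fragments of the library. Of 47069 genes listed, 10767 had a mean of at least 1 FPKM over the 6 libraries and were tested. Library totals were 24806227, 18384604 and 18462007 fragments for AMPKa1-/- and 28176237, 18408669 and 22922302 for wild-type.

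AMP-activated protein kinase (AMPK) is a sensor of low cellular energy, built of a catalytic alpha, a scaffolding beta and an AMP-binding gamma subunit. It switches cells from synthesis to oxidation and autophagy, and the alpha1 isoform, encoded by Prkaa1, is the main catalytic subunit of macrophages. LPS drives macrophages through Toll-like receptor signalling into cytokine production and glycolysis, and glucocorticoids acting through their receptor repress many of these genes while inducing others. The comparison asks which genes differ by genotype when both signals are present.

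Prkaa1 did not separate the genotypes. Prkaa1 (ENSMUSG00000050697, chr15:5143861-5181899 in GRCm38) had 12.5, 12.9 and 9.65 FPKM in the libraries labelled AMPKa1-/- and 20.5, 13.7 and 8.59 FPKM in the wild-type libraries. The 2 groups overlapped, with the highest and the lowest value both in wild-type. The log2 difference was -0.20 (standard error 0.29, 95% confidence interval -0.88 to 0.48, limma adjusted p = 1.0). Over all treatments, Prkaa1 ranged from 9.05 to 24.0 FPKM (median 15.1) in 18 libraries labelled AMPKa1-/- and from 8.59 to 26.1 FPKM (median 15.3) in 17 wild-type libraries. A gene-level value does not show whether part of the transcript is missing, so it does not check the label by itself. For this reason the samples are called the libraries labelled AMPKa1-/-, and every direction below is relative to that label.

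The other subunits were also near equal. Of 15 genes of the AMPK complex and its upstream kinases, 12 were tested and none was called by limma at an adjusted p of 0.05, and none had an unadjusted p under 0.05. Their median log2 difference was -0.10, beside -0.04 over all genes tested. Prkaa2, the alpha2 subunit, was at most 0.0556 FPKM in the 6 libraries. Stk11, the upstream kinase LKB1, had 89.1, 92.4 and 92.7 FPKM in AMPKa1-/- and 91.4, 86.8 and 84.9 FPKM in wild-type. Camkk2, the calcium-dependent upstream kinase, had 59.2, 64.2 and 43.9 FPKM against 96.7, 73.9 and 46.5 FPKM, again with overlap. Of 20 AMPK substrates and effectors, 17 were tested and none was called by limma, with a median log2 difference of -0.02. An unadjusted p under 0.05 was reached by 1 (5.88%), beside 5.00% of all genes tested.

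All 6 libraries had the profile of macrophages. Adgre1, which encodes the macrophage marker F4/80, had 2393, 2684 and 1821 FPKM in AMPKa1-/- and 2745, 2751 and 1840 FPKM in wild-type, and Csf1r, the receptor for the growth factor of the culture, had 376 to 484 FPKM. All 18 macrophage identity genes were tested and none was called by limma. Of these, 4 (22.2%) had an unadjusted p under 0.05, beside 5.00% of all genes tested. Their median log2 difference was 0.18, beside -0.04 over all genes tested. The summed FPKM of T and NK cell, mast cell, B cell and stromal markers was low in every library, the highest sum being 16.2 FPKM for the stromal list. Dendritic cell markers summed to 116, 167 and 401 FPKM in AMPKa1-/- and 317, 189 and 392 FPKM in wild-type, most of it Itgax, which macrophages also express. Erythroid and megakaryocyte markers summed to 208, 253 and 614 FPKM against 246, 283 and 360 FPKM, most of it the chemokine Pf4. The groups overlapped in both sums, and none of the 3 genes of these 2 lists that were tested was called by limma or reached an unadjusted p under 0.05. Nnt, a mitochondrial transhydrogenase that differs between C57BL/6 substrains, had 11, 11.7 and 6.77 FPKM against 13, 10.8 and 8.30 FPKM. The study's methods describe cohorts of both sexes, while Xist was at most 0.0283 FPKM and the Y-linked Ddx3y 13.6 to 42.9 FPKM over all 35 libraries.

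Under LPS + Dex, 7 genes differed between the genotypes. Eno1b, Gm4735, Fblim1 and Pdpn were lower in the libraries labelled AMPKa1-/-, the first 3 of them nearly undetected there. BC018473, Cd300e and Cygb were higher, by 2.83, 2.95 and 2.21 times in mean FPKM. These were 0.0650% of the 10767 genes tested by limma on log2(FPKM + 1), with 3 higher and 4 lower. An unadjusted p under 0.05 was reached by 538 genes (5.00%), of which 270 were higher and 268 lower. The 3 libraries of one genotype lay wholly on one side of the other 3 in 1026 genes (9.53%). With the replicate number as a block, limma called 12 genes, the same 7 with Draxin, mt-Rnr1, Rbpms, St6galnac1 and Zfp984. With no filter on low values limma called 2 genes, and without moderation of the variances 0 (547 at an unadjusted p under 0.05). Leaving out 1 library gave 2 to 6 calls, the fewest without AMPKa1-/- replicate 1 or 3, then 3 without wild-type replicate 1 and 4 without wild-type replicate 3. Bulk RNA cannot tell fewer cells of one kind from less RNA per cell, and p-values measure the spread between these cultures only.

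**Figure D1:**
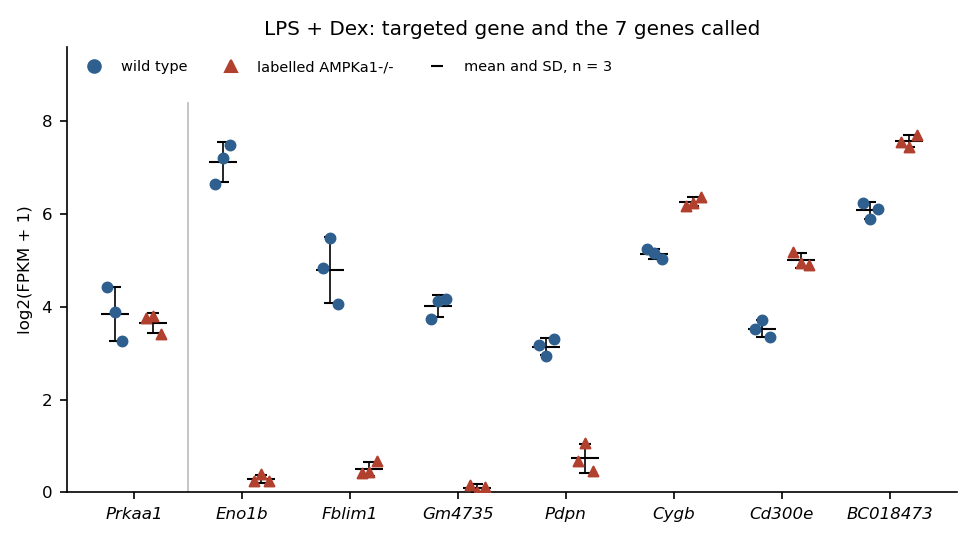
Expression in each LPS + Dex library as log2(FPKM + 1) (vertical axis) of Prkaa1 and of the 7 genes called by limma, wild-type as circles and libraries labelled AMPKa1-/- as triangles, with mean and SD (n = 3). Prkaa1 overlaps between the groups, while each of the 7 genes separates them.

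Both Eno1b and Gm4735 are copies of enolase, the glycolytic enzyme that makes phosphoenolpyruvate. Eno1b (ENSMUSG00000059040, chr18:48045335-48048412) had 0.184, 0.310 and 0.185 FPKM in AMPKa1-/- and 99.7, 147 and 179 FPKM in wild-type. Every AMPKa1-/- library was close to 0 and every wild-type library was at 99.7 FPKM or more, a log2 difference of -6.83 (standard error 0.22, limma adjusted p = 5.42e-05). Gm4735 (chr2:80837141-80838442) is annotated as a processed pseudogene, not as a protein-coding gene. It had 0.124, 0 and 0.0832 FPKM in AMPKa1-/- and 12.3, 16.5 and 17.1 FPKM in wild-type. This too left the groups far apart, with a log2 difference of -3.92 (standard error 0.18, limma adjusted p = 0.000351). Both stayed called when any 1 of the 6 libraries was left out.

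These values are uncertain as gene levels, because both loci nearly match Eno1. The Eno1b transcript aligned to that of Eno1 over 1652 of its 1791 bases at 99.5% identity, and Gm4735 over all 1302 of its bases at 99.6%. The authors' counting could therefore have split fragments of enolase transcripts among the 3 loci. Eno1 itself, on distal chromosome 4, had 1999, 2013 and 1918 FPKM in AMPKa1-/- and 905, 1139 and 1221 FPKM in wild-type. All AMPKa1-/- libraries were above all wild-type libraries, but the log2 difference of 0.87 was not called in the 6 libraries (standard error 0.15, limma adjusted p = 0.21). The summed FPKM of the 3 loci was 2000, 2013 and 1918 in AMPKa1-/- and 1017, 1302 and 1417 in wild-type, without overlap. This sum holds only fragments that were counted, and it adds values scaled to loci of unlike length. How fragments were assigned among the loci was not tested. With 35 libraries fitted, Eno1 was called higher (limma adjusted p = 0.00478). Of 28 genes of the glycolysis list, 27 were tested, and the median log2 difference was 0.08. Eno1b was the only one called in the 6 libraries, beside 0.0650% of all genes tested. By limma, 18.5% of the list had an unadjusted p under 0.05 (3 higher and 2 lower), beside 5.00% of all genes tested.

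Fblim1 and Pdpn, 2 genes of cell shape and adhesion on distal chromosome 4, were lower in the libraries labelled AMPKa1-/-. Fblim1 (ENSMUSG00000006219, chr4:141576062-141606096, minus strand) encodes migfilin, an adaptor that ties filamin to adhesion sites. It had 0.336, 0.352 and 0.601 FPKM in AMPKa1-/- and 27.4, 43.7 and 15.7 FPKM in wild-type. The wild-type libraries varied widely but all lay far above the others, with a log2 difference of -4.28 (standard error 0.34, limma adjusted p = 0.0112). Pdpn (chr4:143267431-143299564, minus strand) encodes podoplanin, a mucin-like membrane protein and ligand of the platelet receptor CLEC-2. It had 0.594, 1.1 and 0.378 FPKM in AMPKa1-/- and 7.98, 6.70 and 8.96 FPKM in wild-type. Wild-type had 11.4 times the mean FPKM, and the log2 difference was -2.41 (standard error 0.21, limma adjusted p = 0.0174). Fblim1 was no longer called without AMPKa1-/- replicate 1 or 3 or wild-type replicate 1, and Pdpn only stayed called without AMPKa1-/- replicate 2.

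For the called genes with a promoter in the RefSeq table (GRCm38.p6), Fblim1, Pdpn and Cd300e, the 250 bases before the start are printed here, because they hold the sequence next to the genes that moved. Cygb, BC018473, Eno1b and Gm4735 had no entry. The glucocorticoid response element (GNACA, 3 bases of any kind, then TGTNC), the AP-1 letters TGANTCA, the NF-kB letters (GGGA, 2 bases of any kind, then TTCC) and the CRE letters TGACGTCA were searched on both strands. The capitals mark the only match, an AP-1 match 80 bases before the Fblim1 start.
Fblim1, minus strand, chr4:141606053-141606302: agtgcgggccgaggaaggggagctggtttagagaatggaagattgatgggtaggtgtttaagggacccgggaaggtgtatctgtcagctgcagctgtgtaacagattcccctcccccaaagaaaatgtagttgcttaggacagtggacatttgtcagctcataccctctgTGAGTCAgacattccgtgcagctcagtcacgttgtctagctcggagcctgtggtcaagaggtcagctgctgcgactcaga
Pdpn, minus strand, chr4:143299565-143299814: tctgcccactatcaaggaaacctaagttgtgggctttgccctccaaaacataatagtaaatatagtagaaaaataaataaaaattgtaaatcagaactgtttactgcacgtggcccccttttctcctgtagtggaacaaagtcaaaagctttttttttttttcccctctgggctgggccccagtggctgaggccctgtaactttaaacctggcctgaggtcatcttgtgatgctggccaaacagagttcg
Cd300e, minus strand, chr11:115062040-115062289: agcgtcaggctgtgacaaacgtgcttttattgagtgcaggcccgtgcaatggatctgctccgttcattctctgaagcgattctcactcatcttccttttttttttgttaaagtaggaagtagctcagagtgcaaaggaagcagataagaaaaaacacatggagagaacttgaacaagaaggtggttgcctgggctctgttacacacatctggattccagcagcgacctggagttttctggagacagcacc
A second Fblim1 start (chr4:141599999-141600248) had no match to any of the 4 motifs. Of 32851 RefSeq promoters cut to the same 250 bases, 0.387% held the glucocorticoid response element, 6.75% the AP-1 letters, 1.21% the NF-kB letters and 1.55% the CRE letters. The absence of a match says only that these letters were not in this window.

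The 3 higher genes all lie on chromosome 11, within 114 to 119 Mb. BC018473 (chr11:116752167-116759373), annotated as an antisense transcript, had 187, 173 and 207 FPKM in AMPKa1-/- and 75.0, 58.0 and 67.5 FPKM in wild-type. Its log2 difference was 1.49 (standard error 0.14, limma adjusted p = 0.0174), with a wide gap between the groups. Cd300e (chr11:115051917-115062177, minus strand), an activating receptor of myeloid cells, had 35.4, 29.6 and 28.8 FPKM in AMPKa1-/- and 10.5, 12.1 and 9.17 FPKM in wild-type, a log2 difference of 1.48 (standard error 0.15, limma adjusted p = 0.0338). Cygb (chr11:116645595-116654313, minus strand) encodes cytoglobin, a heme globin that binds oxygen and scavenges nitric oxide. It had 71.7, 74.1 and 82.1 FPKM in AMPKa1-/- and 36.8, 34.8 and 31.5 FPKM in wild-type, a log2 difference of 1.12 (standard error 0.12, limma adjusted p = 0.0338). The groups did not overlap in either gene. BC018473 stayed called only without wild-type replicate 1, and Cd300e and Cygb lost their call whichever of the 6 libraries was left out.

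Neighbours of the called genes also separated the genotypes. The fit of the 6 libraries without a replicate block did not call them, whereas with the block limma called Zfp984 (adjusted p = 0.0481) and Draxin (0.0262) on chromosome 4 and St6galnac1 (0.0481) on chromosome 11. After quantile normalization Clstn1 (0.0214), Draxin (0.0308), Gm11735 (0.0136) and St6galnac1 (0.0403) were called. On distal chromosome 4, from 140 to 157 Mb, 138 genes were tested, of which 2 were called, 23 (16.7%) had an unadjusted p under 0.05 and 35 (25.4%) did not overlap between the groups, beside 5.00% and 9.53% of all genes. Of these 23 genes, 17 were lower in AMPKa1-/-. In the chromosome 11 stretch, 81 genes were tested, 3 were called, 20 (24.7%) had an unadjusted p under 0.05, 14 of them higher, and 29 (35.8%) did not overlap. Both stretches were chosen after their values were seen, so these shares are a description. Within 5 Mb of Prkaa1, 22 genes were tested and none was called by limma or reached an unadjusted p under 0.05.

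**Figure D2:**
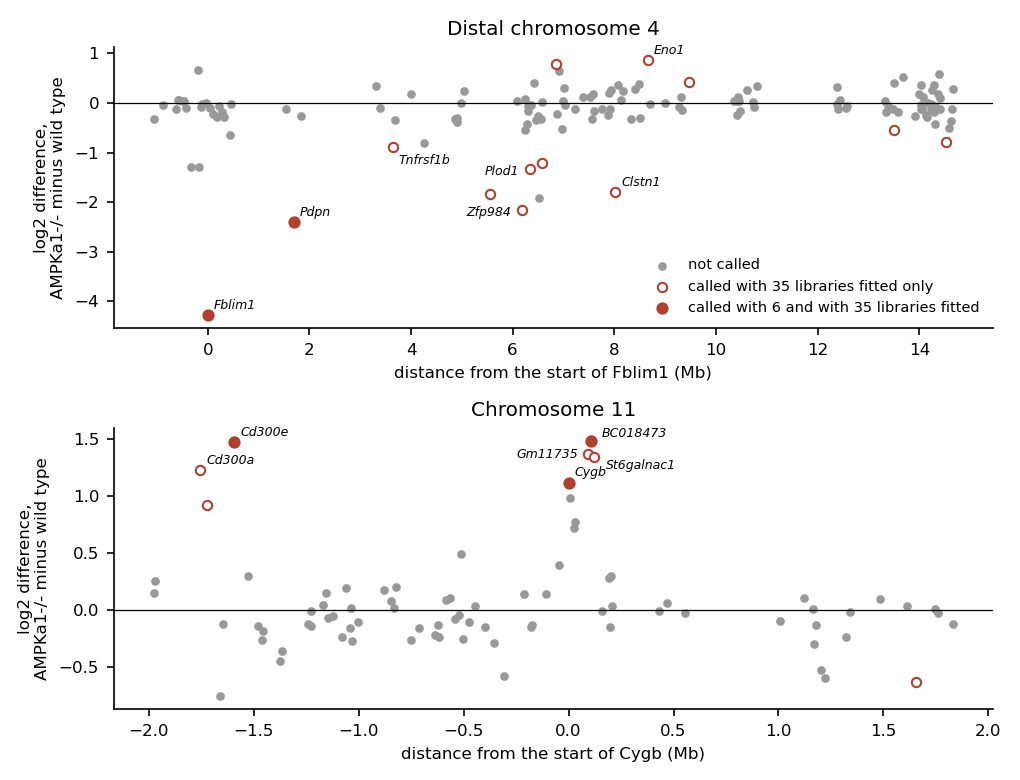
Log2 difference (libraries labelled AMPKa1-/- minus wild-type, LPS + Dex) of each gene tested against its distance in Mb from the start of Fblim1 (upper panel, distal chromosome 4) and of Cygb (lower panel, chromosome 11). Filled points were called with 6 libraries and with 35, open points with 35 only, and names mark the genes described in the text; Fblim1 and Pdpn lie lowest in the upper panel, and BC018473 and Cd300e highest in the lower.

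On chromosome 4, Zfp984, a zinc finger gene, had 0.110, 0.148 and 0.0844 FPKM in AMPKa1-/- and 3.39, 6.71 and 2.62 FPKM in wild-type. Clstn1, which encodes the vesicle-transport protein calsyntenin 1, had 1.37, 1.43 and 1.48 FPKM against 9.35, 8.61 and 4.93 FPKM. Neither pair of groups overlapped, and both genes had a limma adjusted p of 0.0938 without the block (0.0481 and 0.0502 with it). Plod1, a collagen lysyl hydroxylase, had 64.1, 80.2 and 71.1 FPKM in AMPKa1-/- and 166, 273 and 130 FPKM in wild-type. Tnfrsf1b, the type 2 TNF receptor, had 181, 218 and 327 FPKM against 459, 421 and 428 FPKM. Again the groups were apart without passing the adjusted test (limma adjusted p = 0.272 and 0.467).

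On chromosome 11, St6galnac1, a sialyltransferase next to BC018473, had 21.4, 17.8 and 20.0 FPKM in AMPKa1-/- and 9.61, 6.04 and 6.20 FPKM in wild-type (limma adjusted p = 0.118, and 0.0481 with the replicate block). Gm11735, annotated as a pseudogene beside it, had 5.74, 5.68 and 5.58 FPKM against 2, 1.51 and 1.27 FPKM (adjusted p = 0.0858). Prcd (chr11:116653534-116668389, plus strand) overlaps the start of Cygb on the opposite strand, and no source used here states the strand setting of the counting, so fragments of these 2 genes could be shared. Prcd had 4.06, 3.73 and 5.14 FPKM against 1.30, 1.86 and 1.90 FPKM (adjusted p = 0.262). The CD300 receptors did not all go one way. Cd300a, an inhibitory member, had 6.74, 3.48 and 7.40 FPKM in AMPKa1-/- and 1.56, 2.39 and 1.61 FPKM in wild-type. Cd300ld had 1.83, 1.77 and 1.39 FPKM against 3.76, 3.53 and 3.22 FPKM, lower in every AMPKa1-/- library, and neither reached the adjusted threshold (0.386 and 0.365).

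When all 35 libraries in 12 groups were fitted together, so that every treatment contributed to the estimate of the spread, the same LPS + Dex contrast gave 76 called genes of 11354 (0.669%), 38 higher and 38 lower in AMPKa1-/-. All 7 genes above were among them, 14 of the 76 lay on distal chromosome 4 and 8 in the chromosome 11 stretch. For scale, these stretches held 138 and 81 of the 10767 genes tested in the 6 libraries. They were chosen from values of the same LPS + Dex libraries, so the counts are a description. The genes named from this fit below were chosen after their values were seen. Leaving out the Dex libraries, in which the genotypes stood far apart, gave 66 calls. Same-numbered cultures of a genotype shared some of their deviations, and a fit that allowed for this correlation, estimated at 0.0649, gave 86 calls with the same 7 among them.

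Clec4n, Clec4d and Fpr1, which encode innate immune receptors, were among the 38 higher genes, while the receptor genes Tnfrsf1b and Adora2b were among the 38 lower. The list of Toll-like receptors and NF-kB genes (31 tested) had a median log2 difference of 0.04 and no call by limma in either fit. It held 1 gene at an unadjusted p under 0.05 (3.23%), beside 5.00% of all genes tested. Clec4n, which encodes the fungal receptor dectin-2, had 27.3, 8.75 and 23.5 FPKM in AMPKa1-/- and 4.04, 3.76 and 4.09 FPKM in wild-type, a log2 difference of 1.93 (35-library limma adjusted p = 0.0166). Clec4d, its partner receptor, had 898, 621 and 1028 FPKM against 347, 465 and 502 FPKM (adjusted p = 0.0248). Fpr1, the receptor for bacterial formyl peptides, had 311, 311 and 239 FPKM against 104, 166 and 72.9 FPKM, a log2 difference of 1.39 (adjusted p = 0.0216). In all 3 genes the lowest AMPKa1-/- library was above the highest wild-type library.

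Mmp8, a collagenase best known from neutrophils, was higher too, with 7.17, 10.7 and 5.94 FPKM in AMPKa1-/- and 2.34, 1.33 and 0.747 FPKM in wild-type (35-library limma adjusted p = 0.00478). The 16 neutrophil markers were therefore read beside it. Their summed FPKM was 380, 349 and 630 in AMPKa1-/- and 659, 515 and 1204 in wild-type, most of it S100a8 with a mean of 572 FPKM. Of the 16, 6 were tested, and 3 of these (Mmp8, S100a9 and Chil3) had higher values in AMPKa1-/- at an unadjusted p under 0.05, against 1, S100a8, with lower values. Together these made 66.7% of the markers tested, beside 5.00% of all genes tested. Because Mmp8, which led to the list being read, is counted in it, this share is only a description. Of the 6 markers tested, 3 had a log2 difference above 0 and 3 below. Ngp had 3.56, 0.757 and 0.443 FPKM in AMPKa1-/- and at most 0.0581 FPKM in wild-type, whereas the defining markers Elane, Mpo, Ly6g and Retnlg were at or near 0 in all 6 libraries. The part of such cells in the Mmp8 difference was not tested.

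Genes lower in AMPKa1-/- with 35 libraries fitted included membrane proteins and a chaperone. Adora2b, an adenosine receptor, had 2.16, 3.18 and 3.32 FPKM in AMPKa1-/- and 9.35, 3.71 and 12.9 FPKM in wild-type, a log2 difference of -1.19 (limma adjusted p = 0.0166). Wild-type replicate 2 lay close to the AMPKa1-/- libraries while the other wild-type libraries stood well above. Tmem119, a membrane protein best known from microglia, had 10.2, 15.4 and 11.7 FPKM against 26.4, 24.8 and 24.9 FPKM (adjusted p = 0.000244). Cryaa, the small heat shock protein alpha-A crystallin, had 5.44, 5.09 and 5.57 FPKM against 14.3, 13.5 and 25.9 FPKM (adjusted p = 9.79e-07).

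Genes under the oxidative stress factor NRF2 and of glutathione synthesis mostly had a log2 difference above 0. All 26 genes of the list were tested, none was called in the 6 libraries by limma, and 11 had an unadjusted p under 0.05, all higher, beside 5.00% of all genes tested. A log2 difference above 0 was found in 23 of 26, against 4396 of all 10767 genes, with a median of 0.32 against -0.04. The other treatments were fitted separately. Their list median was 0.05 with vehicle, 0.54 with Dex, 0.38 with LPS, 0.24 with DAMPs and 0.59 with DAMPs + Dex. Relative to the mean of the 6 LPS + Dex libraries, the list median was -0.0431 in AMPKa1-/- replicate 2 and -0.0978 in wild-type replicate 3. The size of the difference therefore depended on single libraries, with the range given under processing. Nqo1, a quinone reductase, had 7.53, 3.92 and 7.08 FPKM in AMPKa1-/- and 1.21, 1.54 and 2.08 FPKM in wild-type, and Me1, the NADPH-producing malic enzyme, had 13.5, 10.6 and 11.8 FPKM against 5.60, 5.89 and 4.96 FPKM. These 2 genes were called with 35 libraries (limma adjusted p = 0.00313 and 0.0174). Hmox1, also in the list, had 389, 354 and 401 FPKM against 390, 495 and 378 FPKM, with no separation.

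Genes of the list of cholesterol efflux and lipid handling, which includes targets of liver X receptors, mostly had a log2 difference below 0. Of 20 listed genes 16 were tested, 12 with a log2 difference below 0 and a median of -0.32, and 5 had an unadjusted p under 0.05 in that direction against 1 in the other. Over all 10767 genes tested, 6371 were below 0, the median was -0.04 and 5.00% had an unadjusted p under 0.05. None was called by limma in the 6 libraries. The other treatments, fitted separately, had list medians below 0 too. These were -0.27 with vehicle, -0.38 with Dex, -0.40 with LPS, -0.19 with DAMPs and -0.26 with DAMPs + Dex. Relative to the mean of the 6 LPS + Dex libraries, the list median was nearly equal in AMPKa1-/- replicate 2 (-0.0408) and wild-type replicate 2 (-0.0346). Nr1h3, the gene of liver X receptor alpha, had 20.9, 24.8 and 23.2 FPKM in AMPKa1-/- and 42.6, 47.0 and 54.6 FPKM in wild-type, a log2 difference of -1.03 called with 35 libraries (adjusted p = 2.59e-06). Pltp, a phospholipid transfer protein, had 36.3, 50.5 and 50.5 FPKM against 77.6, 96.5 and 79.4 FPKM (35-library limma adjusted p = 0.0208). The export pump Abcg1 had 3.61, 8.15 and 11.1 FPKM against 28.0, 13.6 and 20.4 FPKM, apart in every library but not called in either fit (adjusted p = 0.645 and 0.0777).

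Interferon-stimulated genes and the class I antigen pathway had lower means in AMPKa1-/- without a single call. Of 35 interferon-stimulated genes 30 were tested, all 30 with a log2 difference below 0, a median of -0.57 and 11 at an unadjusted p under 0.05 (limma). Over all 10767 genes tested, 6371 were below 0, the median was -0.04 and 5.00% had an unadjusted p under 0.05. In separate fits the interferon list median was -0.31 with vehicle, 0.02 with Dex, -0.23 with LPS, 0.01 with DAMPs and -0.26 with DAMPs + Dex. With LPS + Dex, Isg15, a ubiquitin-like modifier, had 41.0, 36.3 and 35.7 FPKM in AMPKa1-/- and 48.1, 31.5 and 76.7 FPKM in wild-type. Wild-type replicate 2 was the lowest of all. All 19 class I and immunoproteasome genes were tested, and all 19 were below 0, with a median of -0.43 and 5 at an unadjusted p under 0.05, to be read beside the same shares over all genes. The class I median was -0.25 with vehicle, 0.155 with Dex, -0.15 with LPS, -0.18 with DAMPs and -0.24 with DAMPs + Dex. Within that list, H2-Q7 with LPS + Dex had 0, 0 and 7.35 FPKM in AMPKa1-/- and 28.3, 0.0895 and 11.7 FPKM in wild-type. Both genotypes thus held libraries with and without it. H2-D1 was high in the same 3 libraries, with 637, 595 and 2454 FPKM against 3106, 683 and 1886 FPKM. Relative to the mean of the 6 libraries, the interferon list median was -0.0819 in wild-type replicate 2 and -0.138 in AMPKa1-/- replicate 1. For class I these values were -0.0587 and -0.127, so wild-type replicate 2 lay near AMPKa1-/- in both lists.

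**Figure D3:**
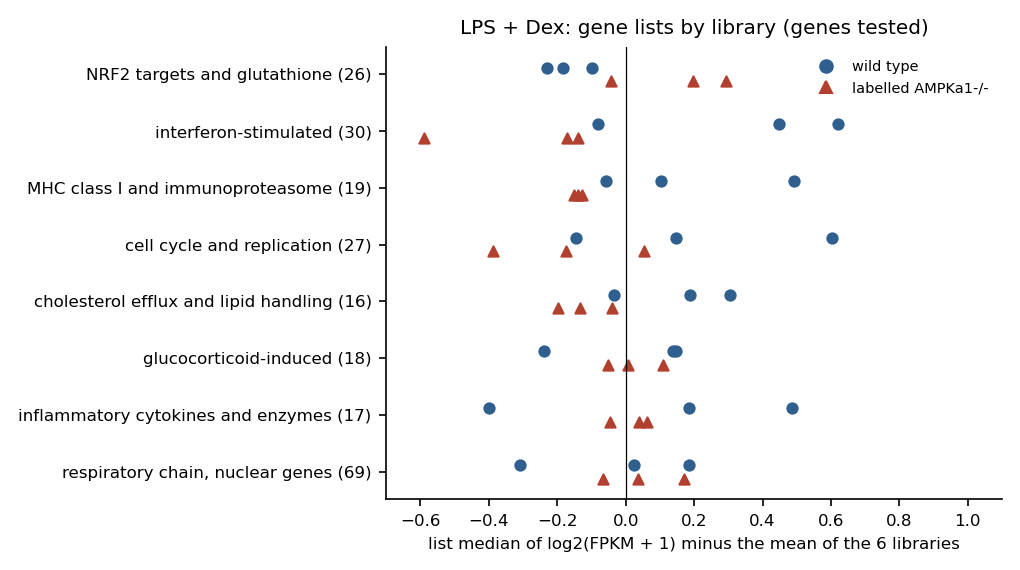
Median over the genes tested of 8 lists (number in brackets) of log2(FPKM + 1) minus the mean of the 6 LPS + Dex libraries (horizontal axis), one point per library, wild-type as circles and libraries labelled AMPKa1-/- as triangles. The NRF2, interferon-stimulated, MHC class I and cholesterol lists do not overlap between the groups; the others do.

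Glucocorticoid-induced genes did not shift together. Of 20 genes 18 were tested, with 7 above and 11 below 0 and a median log2 difference of -0.07. No gene was called by limma in the 6 libraries, and 5 had an unadjusted p under 0.05 (3 higher and 2 lower). That was 27.8%, beside 5.00% of all genes tested. Sgk1, a kinase induced by glucocorticoids, had 129, 125 and 153 FPKM in AMPKa1-/- and 49.8, 33.8 and 83.6 FPKM in wild-type, a log2 difference of 1.36 called with 35 libraries (adjusted p = 0.00478). Tsc22d3, which encodes the glucocorticoid-induced leucine zipper protein, had 129, 167 and 185 FPKM against 248, 257 and 210 FPKM (35-library limma adjusted p = 0.078). Fkbp5, a co-chaperone of the receptor, had 211, 250 and 249 FPKM against 287, 297 and 198 FPKM. The first 2 genes thus separated the libraries in opposite directions, and Fkbp5 overlapped. The glucocorticoid receptor and its chaperones, 12 genes tested, had a median of 0.02 and none with an unadjusted p under 0.05.

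Inflammatory cytokines and enzymes were mixed as well. Of 22 genes 17 were tested, 7 above and 10 below 0, with a median of -0.11 and no call by limma in the 6 libraries. An unadjusted p under 0.05 was reached by 3 (17.6%), beside 5.00% of all genes tested. Tnf had 42.4, 28.8 and 37.4 FPKM in AMPKa1-/- and 20.8, 22 and 30.3 FPKM in wild-type, with overlap. Il1b, which encodes interleukin-1 beta, had 146, 206 and 92.1 FPKM against 211, 38.2 and 292 FPKM, a spread within wild-type that covered all AMPKa1-/- values. Il12b, the p40 subunit of interleukin-12 and 23, had 0.678, 1.34 and 0.626 FPKM against 5.76, 2.83 and 1.35 FPKM, and was called lower with 35 libraries (log2 difference -1.08, adjusted p = 0.025). Saa3, an acute-phase serum amyloid, took 16.0% to 24.0% of the FPKM sum of these libraries, with 139167, 140798 and 194819 FPKM in AMPKa1-/- and 125958, 153213 and 225316 FPKM in wild-type. The spread within each genotype was wider than the difference between their means.

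Other metabolic and growth lists held no called gene. All 17 genes of the TCA cycle were tested with a median of 0.04, and all 69 nuclear genes of the respiratory chain with a median of 0.09, with no gene of either list at an unadjusted p under 0.05 by limma. Fatty acid oxidation (21 tested, median 0.02), autophagy and lysosome biogenesis (25 tested, median 0.01) and the cytosolic ribosome (53 tested, median 0.01) had no call and at most 1 gene each at an unadjusted p under 0.05. Sterol and fatty acid synthesis had 28 genes tested, a median of -0.12 and 1 at an unadjusted p under 0.05. Of 27 cell cycle and replication genes, 25 were below 0 with a median of -0.35, beside 6371 of 10767 and -0.04 for all genes tested. None was called, and 3 had an unadjusted p under 0.05, beside 5.00% of all genes tested. Relative to the mean of the LPS + Dex libraries, the groups overlapped in the list median. It was 0.0529 in AMPKa1-/- replicate 2, -0.146 in wild-type replicate 3 and highest, 0.602, in wild-type replicate 2. Its range with 1 library left out is given under processing. Mki67, a marker of cycling cells, had 5.63, 5.36 and 2.83 FPKM in AMPKa1-/- and 6.15, 3.83 and 4.73 FPKM in wild-type.

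The enolase copies and the chromosome 4 genes were lower in AMPKa1-/- in other treatments too. Each treatment was fitted on its own libraries, and limma called 19 genes with vehicle (0.169%), 3 with LPS (0.0277%), 11 with DAMPs (0.0982%) and 35 with DAMPs + Dex (0.316%), against 2984 with Dex (26.7%), where the genotypes stood apart across a large part of all genes. Eno1b, Gm4735 and Fblim1 were called lower in each of the 6 treatments, and they were the only calls with LPS, where wild-type had 2 libraries. Fblim1 had a log2 difference of -3.53 with vehicle, -4.13 with Dex, -3.45 with LPS, -3.28 with DAMPs and -3.72 with DAMPs + Dex, beside -4.28 with LPS + Dex. Its level moved strongly with treatment, since wild-type had 99.2 to 177 FPKM with vehicle but 12.5 and 12.9 FPKM with LPS. Pdpn was called lower with vehicle (-2.65), DAMPs (-2.85) and LPS + Dex, and its log2 difference was -2.46 with LPS, -1.16 with Dex and -1.28 with DAMPs + Dex. No source used here states whether cultures of several treatments came from the same mice.

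**Figure D4:**
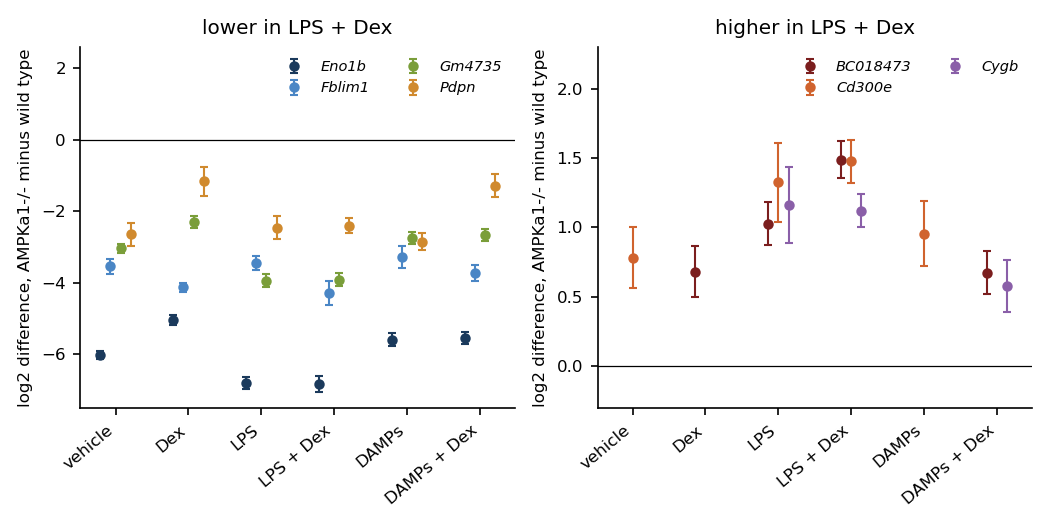
Log2 difference (libraries labelled AMPKa1-/- minus wild-type, with standard error) of the 4 genes lower (left) and the 3 genes higher (right) with LPS + Dex, in each of 6 treatments fitted separately by limma; a missing point is a gene under the minimum FPKM in that treatment. The lower genes are below 0 everywhere, while the higher genes have their points in a subset of treatments.

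All 3 higher genes had low values with vehicle. BC018473 was at 0.220 to 0.672 FPKM in AMPKa1-/- and 0.348 to 0.529 FPKM in wild-type with vehicle. With LPS it was at 54.2 to 70.3 FPKM against 27.9 and 30.4 FPKM, without overlap, and with LPS + Dex both genotypes were higher still. Its log2 difference with LPS was 1.03, not called by limma in the 5 LPS libraries (adjusted p = 0.289), and it was called with Dex (0.68, adjusted p = 0.0293). Cd300e had 1.27 to 2.3 FPKM in AMPKa1-/- and 0.360 to 1.03 FPKM in wild-type with vehicle, without overlap (log2 difference 0.78, adjusted p = 0.321). It was most abundant with LPS, at 96.9 to 126 FPKM against 30.1 and 60.3 FPKM (log2 difference 1.32, adjusted p = 0.363), and at most 0.193 FPKM with Dex. Cygb was under 0.1 FPKM in every vehicle library, 2.85 to 5.11 FPKM against 0.774 and 1.67 FPKM with LPS, and highest with LPS + Dex.

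The genotype difference with LPS + Dex was then tested against that of other treatments as an interaction over 35 libraries. Against vehicle, limma called 9 of 11354 genes (0.0793%). These were BC018473, Gm11735, Cygb, St6galnac1 and Srfbp1 in the positive direction and Cryaa, Cd300ld, Nr1h3 and Gm4735 in the negative. The interaction was 1.52 for BC018473 (standard error 0.23, adjusted p = 0.0019) and -0.84 for Nr1h3 (standard error 0.16, adjusted p = 0.0385), whose log2 difference was -0.19 with vehicle and -1.03 with LPS + Dex. BC018473, Gm11735, Cygb, St6galnac1 and Cryaa were at most 0.672 FPKM in every vehicle library. No sizeable difference on log2(FPKM + 1) could therefore appear there, and their interactions restate the LPS + Dex difference. Gm4735 was at most 0.146 FPKM in the AMPKa1-/- libraries of both treatments. Its interaction follows the wild-type level, 7.64 to 8.64 FPKM with vehicle and 12.3 to 17.1 FPKM with LPS + Dex. Of the 9 genes, 5 lie in the chromosome 11 stretch, which was chosen after its values were seen. With the replicate number as a block, St6galnac1 was no longer called and Arl4c, Dusp1 and Gm14461 were added. With a pseudocount of 0.1 limma called none of the 9 (398 genes at an unadjusted p under 0.05), and 5 genes were called without AMPKa1-/- replicate 1 or 3 or wild-type replicate 3 of LPS + Dex.

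Against LPS alone, limma called no gene of 11354 (0%), with 311 at an unadjusted p under 0.05, so no effect of adding Dex on the genotype difference passed the adjusted test. The count was 75 with no filter on low values, 1 (Tmem119) with quantile normalization and 1 in the 29 libraries outside the Dex groups. The interaction with LPS was 0.15 for Cd300e (95% confidence interval -0.48 to 0.79), -0.01 for Eno1b (-0.52 to 0.49) and -0.83 for Fblim1 (-1.70 to 0.03). These intervals leave room for moderate differences. Eno1b and Fblim1 were at most 0.370 and 0.601 FPKM in the AMPKa1-/- libraries of both treatments, so their values mostly follow the wild-type level. Against Dex alone, 19 genes were called (0.167%), and 54 with the replicate number as a block. They include Cd300e (1.45), Kcne3 (-1.98), Eno1b (-1.77) and Gm4735 (-1.61), and rest on the Dex libraries that stood apart. Cd300e was at most 0.193 FPKM with Dex, so its interaction restates the LPS + Dex difference. Eno1b and Gm4735 were at most 0.310 and 0.124 FPKM in the AMPKa1-/- libraries of both treatments. Their interactions therefore follow the wild-type level and do not show that the genotype effect depends on treatment. The count was 81 without wild-type replicate 1 of LPS + Dex, 10 without AMPKa1-/- replicate 1 and 6 without wild-type replicate 3.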

How the data were processed

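RNA of BMDM cultures from individual mice, per the study's methods, was sequenced, and the authors deposited FPKM per gene for each library. The submitters' processing notes name Bowtie2 2.2.3, TopHat2 2.0.12 and HTSeq 0.6.1 with GRCm38 and mm10. No source used here states their roles, the strand setting or the details of normalization. GENCODE release M21 (GRCm38) gave positions for the genes and symbols for 46574 of the 47069 identifiers. Library totals (18384604 to 28176237 fragments for LPS + Dex) were read from the steps of low FPKM values. Because too few values came out as whole fragments, no count test was run. The precision differs little among the 6 libraries, but the 2 largest totals are AMPKa1-/- replicate 1 and wild-type replicate 1.

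Groups follow the labels for genotype and treatment. Log2(FPKM + 1) of genes with a mean of at least 1 FPKM was fitted with limma 3.58.1 in R 4.3.3 (trended empirical Bayes, 2-sided, Benjamini-Hochberg at 0.05). This scale understates changes of weakly expressed genes. Interactions are contrasts of 12 groups in 35 libraries. The main fit and the interaction with vehicle were run on simulated data with known changes. Those changes were larger than many differences given here, and the simulated libraries varied independently. Recovery of smaller changes was not tested. Tables and figures used Python 3.11.15, pandas 2.3.3, numpy 2.4.6 and matplotlib 3.10.9, and enolase transcripts were aligned with blastn 2.17.0.

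Same-numbered libraries of the 2 genotypes deviated together from their group means (correlations across genes 0.116, 0.118 and 0.522), which met the 0.1 set for pairing. The pairing rests on the data, since neither labels nor methods state the meaning of the numbers. Printed p-values come from fits without the block, and blocked values are given where a call changed. A 35-library fit with same-numbered cultures of a genotype correlated was added after seeing the data. The results were recomputed with a pseudocount of 0.1, without the filter, with a minimum of 5 FPKM, after median centring or quantile normalization, over other sets of libraries, without moderation, with the replicate block and without each library in turn.

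Named genes are Prkaa1, Prkaa2, Nnt and the sex-linked genes, up to 12 called genes in each direction that do not overlap between groups, up to 4 called genes of each of 43 lists, called genes of the 3 windows of 5 Mb with the largest share called and near Prkaa1, and the 5 smallest p of each interaction. Genes of interest beyond this rule were chosen after their values were seen, and some genes are not reported here. The genes compared and the lists were chosen with earlier results of these data known. Lists named in the text only by a count are given there, and the remaining lists held no call with 6 libraries.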

Additional observations from a re-analysis of the deposited data

Results flagged for a closer look

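Some genes were singled out because their genotype difference with LPS + Dex differed from that in another treatment in the interaction in the 35-library limma fit. The values are log2 differences with LPS + Dex minus those in the other treatment, for the 5 genes with the smallest p among the called genes of each interaction.

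Against vehicle, these were BC018473 (1.52), Gm11735 (1.36) and Cygb (1.12), all on chromosome 11 and all under 1 FPKM with vehicle, and Cryaa (-1.51) and Cd300ld (-1.64). For all but Cd300ld the difference on log2(FPKM + 1) could not be other than near 0 with vehicle, where the gene was hardly expressed, so the interaction restates the LPS + Dex difference and does not show that the genotype effect depends on treatment. Cryaa was listed at 0 in all 6 vehicle libraries, at most 1.17 FPKM with LPS, and at 5.09 to 5.57 FPKM in AMPKa1-/- against 13.5 to 25.9 FPKM in wild-type with LPS + Dex. Cd300ld turned over in direction: AMPKa1-/- was higher with vehicle, at 57.0 to 71.7 FPKM against 29.8 to 40.7 FPKM, and lower with LPS + Dex. Its own differences were not called in either treatment by limma (adjusted p = 0.0716 with vehicle and 0.365 with LPS + Dex).

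Against Dex, these were Eno1b (-1.77) and Gm4735 (-1.61), the copies of enolase, together with Rpgrip1 (1.71), Cryaa (-1.43) and Klk1b22 (2.90). Cryaa was at most 0.134 FPKM with Dex, so the same limit holds for its value. Rpgrip1 was at 2.19 to 2.66 FPKM in AMPKa1-/- and 6.11 to 12.6 FPKM in wild-type with Dex, but overlapped with LPS + Dex. Klk1b22, a kallikrein gene of a family with near-identical copies, was at 0.055 FPKM or less in every AMPKa1-/- library of these 2 treatments, against 7.63 to 27.7 FPKM in wild-type with Dex and 0.830 to 1.48 FPKM with LPS + Dex. Eno1b and Gm4735 were likewise at most 0.310 and 0.124 FPKM in the AMPKa1-/- libraries of both treatments. The interactions of Klk1b22, Eno1b and Gm4735 therefore follow the wild-type level and do not show that the genotype effect depends on treatment. All values against Dex rest on libraries in which 26.7% of genes were called between the genotypes, and the part of those libraries in them was not tested.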

How the results depend on the processing

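All 7 calls were kept with a pseudocount of 0.1, median centring, quantile normalization, the replicate block and each larger set of libraries, and 6 with a minimum of 5 FPKM. The count of 7 became 2 with no filter, 14 with median centring (6 higher and 8 lower), 12 with quantile normalization, 12 with the replicate block, 76 with 35 libraries, 86 with same-numbered cultures correlated, 65 with 23, 66 with the 29 outside the Dex groups (chosen after seeing the data) and 0 without moderation (547 genes at an unadjusted p under 0.05). It was 2 to 6 with 1 library left out. The lowest, 2, came without AMPKa1-/- replicate 1 and without AMPKa1-/- replicate 3, 3 came without wild-type replicate 1, and 4, 5 and 6 without wild-type replicate 3, wild-type replicate 2 and AMPKa1-/- replicate 2. Fewer libraries then stand behind each test.

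The 9 calls of the interaction with vehicle became 0 with a pseudocount of 0.1 (398 at an unadjusted p under 0.05, limma), 26 with no filter, 2 with a minimum of 5 FPKM, 5 in the 4 groups alone, 4 in 29 libraries and 5 to 11 with 1 LPS + Dex library left out. The 0 calls of that with LPS became 75 with no filter, 1 (Tmem119) with quantile normalization and 1 in 29 libraries, and stayed 0 with any LPS + Dex library left out. The 19 of that with Dex became 5 with a pseudocount of 0.1, 51 with no filter, 10 with a minimum of 5 FPKM, 43 with quantile normalization, 2 in the 4 groups alone, 54 with the replicate block and 6 to 81 with 1 LPS + Dex library left out. The causes were not tested. The replicate block lost none of the 7 calls, and the interaction with vehicle then had 11, without St6galnac1.

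With 1 library left out, list medians ranged from 0.186 to 0.461 for NRF2, -0.711 to -0.451 for interferon, -0.476 to -0.298 for class I, -0.512 to -0.156 for the cell cycle, -0.407 to -0.235 for cholesterol, -0.215 to 0.0439 for glucocorticoid-induced genes, -0.510 to 0.0560 for inflammatory genes and -0.0676 to 0.185 for the respiratory chain. Glucocorticoid-induced genes turned positive without AMPKa1-/- replicate 1 (0.00966) and wild-type replicate 1 (0.0439). Among uncalled genes, the log2 difference changed sign for Prkaa1 (-0.50 to 0.0848), Ddx3y (-0.50 to 0.0605), Uty (-0.59 to 0.0457) and Nnt (-0.28 to 0.0973) without wild-type replicate 1, for Nnt and Eif2s3y (-0.16 to 0.0543) without AMPKa1-/- replicate 3, and for Tec (-0.0202 to 0.21) without AMPKa1-/- replicate 1 or wild-type replicate 3. Depth limits genes near 0.1 FPKM, where a library holds a few fragments.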

Other observations

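H2-Q7, a non-classical class I gene of chromosome 17, divided the cultures within each genotype. The division followed the same numbers across treatments, with 1 library, given below, as an exception. With LPS + Dex, H2-Q7 was at 7.35 FPKM in AMPKa1-/- replicate 3 and 28.3 and 11.7 FPKM in wild-type replicates 1 and 3, and at most 0.0895 FPKM in the remaining 3 libraries. With LPS, AMPKa1-/- replicate 3 had 343 FPKM and wild-type replicate 3 had 265 FPKM, and the other 3 libraries had at most 0.181 FPKM of H2-Q7. Over all treatments it was at 1.12 FPKM or more in AMPKa1-/- replicate 3 and in wild-type replicates 1 and 3, and at most 0.181 FPKM in AMPKa1-/- replicates 1 and 2 and wild-type replicate 2, except for 2.26 FPKM in AMPKa1-/- replicate 1 with DAMPs + Dex. H2-D1 was at 1886 FPKM or more in the first set and at most 1627 FPKM in the second, except for 2681 FPKM in the same library. The cause was not tested.

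Klk1b22 was listed at 0 in all 3 libraries labelled AMPKa1-/- with vehicle, LPS, LPS + Dex, DAMPs and DAMPs + Dex, and wild-type had 5.71 to 10.9 FPKM with vehicle, 0.442 and 0.880 FPKM with LPS, and 9.12 to 43.9 FPKM with DAMPs + Dex. It was under the minimum FPKM in the 6 LPS + Dex libraries and was not tested there.

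In a principal component analysis of the 6 libraries, the first component (50.3% of the variance) did not order them by genotype, and the second (20.0%) held the libraries labelled AMPKa1-/- at 7.54 to 18.3 and the wild-type libraries at -20.1 to -6.46. Correlations of log2(FPKM + 1) across genes were 0.963 to 0.992 within a genotype and 0.960 to 0.984 between genotypes, where genes are not independent replicates.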
